A study of Mus musculus with 4 samples.

Results

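The keratins of basal, activated and simple epithelium were read across 4 mouse oral cancer cell lines. The set held 10 genes of the 34721 entries in the expression table, in which 55 entries were keratin genes. Its members were Krt5, Krt14 and Krt15 of the basal layer, Krt6a, Krt16 and Krt17 of activated epithelium, and Krt7, Krt8, Krt18 and Krt19 of simple epithelium. They were chosen as a family with their levels in these lines already known, so that the levels and differences given here are a description and carry no test. The table was matched to gene symbols through the Ensembl identifiers of GENCODE M21, and 9 of the 10 members reached 1 FPKM (fragments per kilobase of transcript, scaled to library size) in at least 1 line. Krt15 did not.

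The lines came from C57BL/6 mice whose buccal mucosa was painted with the carcinogen 7,12-dimethylbenzanthracene until tumors formed. AOC3 was derived from the primary tumor of mouse 3 and AOC3-LN from the lymph node metastasis of that mouse, and AOC11 and AOC11-LN were derived in the same way from mouse 11. All 4 were passaged once as a subcutaneous tumor in the flank of a further C57BL/6 mouse, depleted of fibroblasts with an isolation kit, and grown in DMEM/F12 medium with fetal bovine serum. None of the lines received a treatment for this measurement, and the ages of the mice at harvest are not given here. RNA of each line was sequenced as 1 library, so no line has a replicate, no difference has a replicate check, and mouse of origin cannot be told apart from line. Between 28280000 and 33800000 fragments per line were estimated from the spacing of the low FPKM values. Epithelial markers fitted the oral cancer label, since Epcam was 518, 509, 416 and 493 FPKM and Cdh1 was 144, 158, 151 and 183 FPKM in AOC3, AOC3-LN, AOC11 and AOC11-LN. Of the 8 fibroblast markers 0 reached 1 FPKM in any line, and their sum was 0.246 to 1.17 FPKM. The 4 endothelial, 5 T cell and 3 measured muscle markers did not reach it either, and Cd3e, Cd8a and Cd4 were listed at 0 throughout. Of the 5 macrophage markers Csf1r and Cd68 reached 1 FPKM, while Adgre1 was listed at 0 in every line. Csf1r was 0.995, 0.435, 20.8 and 6.01 FPKM, higher in mouse 11 as Krt7 was, and Cd68 was 13.0, 8.79, 6.15 and 4.45 FPKM, higher in mouse 3. The summed level of the 5 was 14.0, 9.29, 27.0 and 10.5 FPKM. Of the 4 melanocyte markers Mitf alone reached 1 FPKM, with a summed level of 1.32 to 3.90 FPKM. The part of these markers in the keratin differences was not tested.

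Keratins are the intermediate filament proteins of epithelial cells. A filament is built from obligate pairs of an acidic type I and a basic type II keratin, and the type II genes lie in a cluster on mouse chromosome 15 while the type I genes, except Krt18, lie in a cluster on chromosome 11. In stratified epithelium such as that of the mouth, Krt5 (type II) pairs with Krt14 or Krt15 in the basal layer. In epidermis, Krt6a (type II), Krt16 and Krt17 are induced on wounding and in hyperproliferation. Krt8 with Krt18 is the pair of simple, single-layered epithelium, where Krt7 (type II) and Krt19 (type I) mark ducts and glands and are also met in carcinomas.

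Krt5 and Krt7 had the largest differences between the means of the lines of the 2 mice, in opposite directions, and their promoters are shown for that reason. RefSeq promoter entries (GRCm38.p6) were found for 5 of the 10 members, namely Krt5, Krt14, Krt7, Krt8 and Krt18. The 250 bases before the annotated start of Krt5 lie at chr15:101712906-101713155 on the minus strand, and those of Krt7 at chr15:101412153-101412402 on the plus strand. The Krt5 window lies outside the GENCODE M21 gene, whereas that of Krt7 lies inside the Krt7 gene, since other Krt7 transcripts start upstream. Capitals mark matches, on either strand, to GGGCGG, the GC box, or to GCCNNNGGC, a motif of AP-2 factors, and the most distal GCCNNNGGC match overlaps a GC box.
Krt5: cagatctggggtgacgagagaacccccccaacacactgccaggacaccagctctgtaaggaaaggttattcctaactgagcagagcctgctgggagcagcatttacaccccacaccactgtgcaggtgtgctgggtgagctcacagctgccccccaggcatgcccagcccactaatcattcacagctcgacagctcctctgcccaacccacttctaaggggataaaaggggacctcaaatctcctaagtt
Krt7: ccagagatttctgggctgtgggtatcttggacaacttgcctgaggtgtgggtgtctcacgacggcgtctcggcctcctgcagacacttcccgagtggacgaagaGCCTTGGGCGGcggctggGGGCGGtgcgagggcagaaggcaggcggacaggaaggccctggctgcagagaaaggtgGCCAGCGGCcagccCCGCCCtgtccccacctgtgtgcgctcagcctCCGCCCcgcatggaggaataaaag

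The Krt7 window held 4 GC boxes, at 141, 128, 56 and 24 bases before the start, and 2 GCCNNNGGC matches, at 146 and 70 bases. The Krt5 window held neither motif. Of 32851 promoters of the same length, 32.7% held GGGCGG and 13.7% held GCCNNNGGC. Neither window held TATAAA, present in 12.4% of promoters, or TGANTCA, the AP-1 motif, present in 6.75%. GC content was 66.0% for Krt7 and 56.0% for Krt5, against a median of 52.4% over all promoters. The windows of Krt8 and Krt18 had 58.0% and 60.4% GC, Krt8 without any of these motifs and Krt18 with a single GCCNNNGGC. These letter matches describe the windows and were not tested for binding.

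Krt8 and Krt18, the simple epithelial pair, were the most abundant members overall. Krt8 (ENSMUSG00000049382.10; mm10, chr15:101996698-102004482, minus strand) was 815 and 1078 FPKM in AOC3 and its lymph node line and 949 and 986 FPKM in AOC11 and its lymph node line. Krt18 (ENSMUSG00000023043.7; chr15:102028180-102032027, plus strand) was 1307, 1322, 957 and 1115 FPKM in the same order. Krt18 was higher in both lines of mouse 3 than in both of mouse 11, by 1.17-fold between the nearest lines, whereas the Krt8 levels of the 2 mice overlapped. Across the 4 lines Krt8 varied 1.32-fold and Krt18 varied 1.38-fold. Among all entries of the table Krt18 ranked between 68 and 119 and Krt8 between 91 and 134. In bulk RNA, fewer cells of a type and less RNA per cell cannot be told apart, which holds for every level given here.

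Krt5, the type II keratin of the basal layer (ENSMUSG00000061527.7; chr15:101707070-101712898, minus strand), was high in the lines of mouse 3 and low in those of mouse 11. AOC3 had 499 FPKM and AOC3-LN 275, against 4.99 for AOC11 and 17.0 for AOC11-LN. The primary lines differed 99.9-fold and the lymph node lines 16.1-fold, and the lines of the 2 mice did not overlap. Within mouse 11 Krt5 was 3.41-fold higher in the lymph node line, and within mouse 3 it was 1.82-fold higher in the primary line. The AOC11 value corresponded to about 339 fragments, with an exact 95% Poisson interval of 4.48 to 5.55 FPKM, which covers counting error only, as do the other intervals below. Krt5 ranked 197 among all entries in AOC3 and 9382 in AOC11.

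Krt7, a type II keratin of simple and ductal epithelium (ENSMUSG00000023039.17; chr15:101411043-101430313, plus strand), showed the opposite order. AOC3 and AOC3-LN had 13.0 and 5.91 FPKM, against 635 and 306 for AOC11 and AOC11-LN. AOC11 exceeded AOC3 by 48.7-fold, AOC11-LN exceeded AOC3-LN by 51.7-fold, and the nearest lines of the 2 mice were 23.4-fold apart. In each mouse the primary line was the higher, by 2.21-fold in mouse 3 and 2.08-fold in mouse 11. Krt7 ranked 171 in AOC11 and 8710 in AOC3-LN. The AOC3-LN value had a counting interval of 4.06 to 8.32 FPKM when its shortest transcript, of 351 bases, was assumed, while the longest of its 5 transcripts, of 4094 bases, gives a narrower one.

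**Figure D1:**
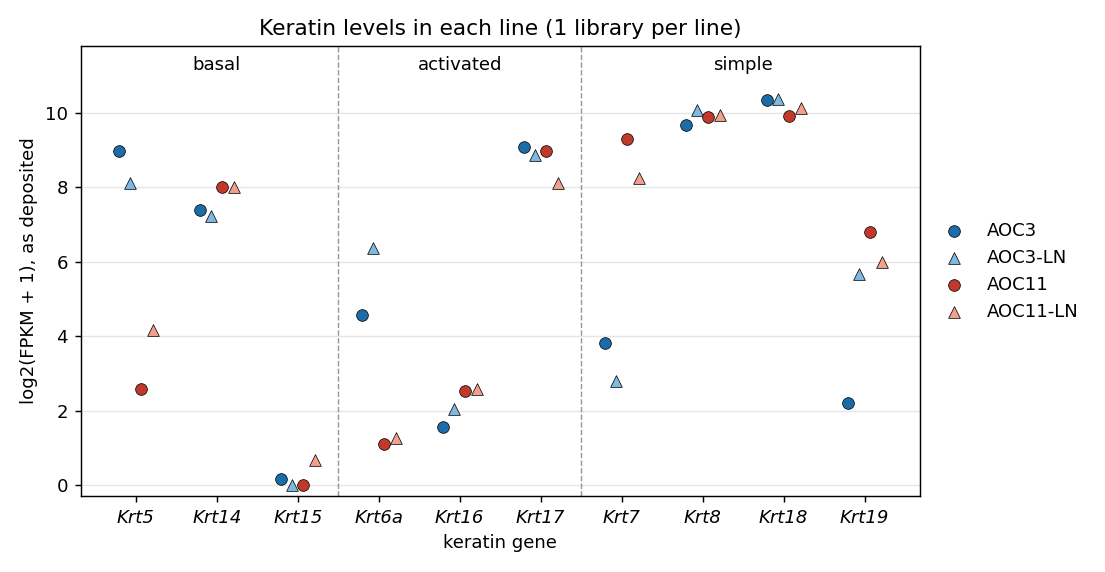
Level of the 10 keratins in the 4 lines as log2(FPKM + 1) of the deposited values, 1 point per line and 1 library per point, grouped by role. Krt5 and Krt6a are higher in both lines of mouse 3 and Krt7 in both lines of mouse 11, whereas Krt8, Krt18, Krt17 and Krt14 each vary less than 2-fold.

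Krt14, the type I partner of Krt5 (ENSMUSG00000045545.8; chr11:100203162-100207548, minus strand), did not follow Krt5. Its level was 166 and 150 FPKM in AOC3 and AOC3-LN and 257 and 259 in AOC11 and AOC11-LN. The lines of mouse 11 were the higher, by 1.55-fold between primary lines and 1.72-fold between lymph node lines, without overlap. The Krt5 to Krt14 ratio of FPKM was therefore 3.0, 1.83, 0.0194 and 0.0658 in the 4 lines. Krt15, the other type I keratin of the basal layer (ENSMUSG00000054146.8; chr11:100131758-100135928, minus strand), was 0.112, 0, 0.0104 and 0.583 FPKM. Its highest value corresponded to at most 29.1 fragments by its longest transcript, so it is given no fold.

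Of the activated keratins, Krt6a (ENSMUSG00000058354.7; chr15:101689910-101694307, minus strand) was 22.9 and 81.1 FPKM in AOC3 and AOC3-LN and 1.16 and 1.40 in AOC11 and AOC11-LN. AOC3 was 19.7-fold above AOC11 and AOC3-LN was 57.9-fold above AOC11-LN. Within mouse 3 the lymph node line was 3.55-fold higher, while the AOC11 and AOC11-LN counting intervals, 0.924 to 1.44 and 1.14 to 1.71 FPKM, overlapped. Krt16 is a type I keratin often induced together with Krt6a (ENSMUSG00000053797.10, at chr11:100246091-100248902, minus strand). It had the reverse order of the mice at low level, with 1.93, 3.13, 4.79 and 5.04 FPKM. Its widest contrast was 2.62-fold. The ratio of Krt6a to Krt16 was 11.9, 25.9, 0.243 and 0.278. Krt17, a type I keratin of activated and appendage epithelium (ENSMUSG00000035557.9; chr11:100256217-100261029, minus strand), was high in every line, at 547, 468, 501 and 279 FPKM. AOC11-LN was the lowest, and the lines of the 2 mice overlapped at FPKM scale.

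Krt19, the smallest type I keratin (ENSMUSG00000020911.14; chr11:100140810-100148665, minus strand), was low in a single line. AOC3 had 3.65 FPKM, whereas AOC3-LN had 50.1, AOC11 had 111 and AOC11-LN had 63.3. AOC11 was 30.5-fold above AOC3, but AOC11-LN was only 1.26-fold above AOC3-LN. Within mouse 3 the lymph node line was 13.7-fold higher. The AOC3 counting interval was 2.68 to 4.86 FPKM, and those of AOC3-LN and AOC11-LN were 46.0 to 54.4 and 58.9 to 67.8 FPKM, the shortest transcript being assumed.

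Because FPKM is scaled to transcript length, the members could be summed within a line. The sum was 3376, 3433, 3422 and 3032 FPKM in AOC3, AOC3-LN, AOC11 and AOC11-LN, which is 1.13-fold from lowest to highest and 0.424% to 0.516% of all FPKM of a line. Krt8 and Krt18 together made up 62.9%, 69.9%, 55.7% and 69.3% of it. The basal members made up 19.7% and 12.4% in the lines of mouse 3 and 7.67% and 9.12% in those of mouse 11. The simple members made up 63.4%, 71.5%, 77.5% and 81.5%, and the activated members 16.9%, 16.1%, 14.8% and 9.42%. The summed basal share was thus higher, and the summed simple share lower, in both lines of mouse 3 than in both of mouse 11. Not all members followed their group. Krt14 held 4.92% and 4.38% in AOC3 and AOC3-LN but 7.52% and 8.54% in AOC11 and AOC11-LN. The share of Krt8 and Krt18 together overlapped between the mice.

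Among the type II members, Krt8 held 60.4%, 74.9%, 59.7% and 75.2% of the FPKM. Krt5 held 37.0% and 19.1% in AOC3 and AOC3-LN but 0.314% and 1.30% in AOC11 and AOC11-LN. Krt7 held 0.967% and 0.411% in the former and 39.9% and 23.3% in the latter. Of these 2 genes Krt5 thus held the larger share in mouse 3 and Krt7 in mouse 11. Their summed level was 512, 281, 640 and 323 FPKM, 2.28-fold from lowest to highest. Among the type I members no such exchange was seen, since Krt18 held 52.3% to 66.3% and Krt17 16.2% to 27.4% of the pool in every line. The ratio of summed type II to summed type I FPKM was 0.666, 0.722, 0.868 and 0.761.

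**Figure D2:**
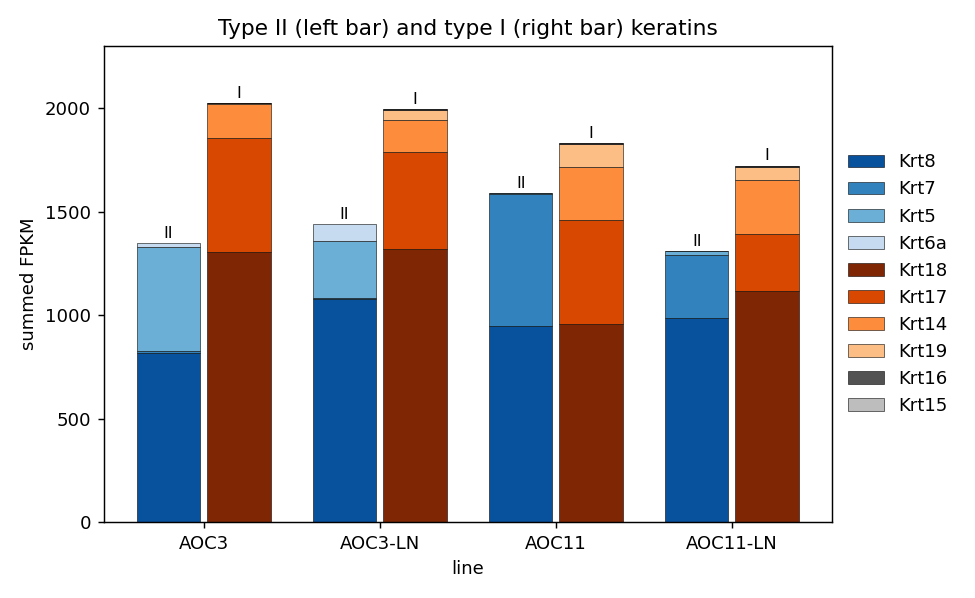
Summed FPKM of the type II members (left bar) and type I members (right bar) in the 4 lines (1 library each), with each member as a segment. Krt5 takes 37.0% of the type II sum in AOC3 and Krt7 takes 39.9% in AOC11, while Krt8 and Krt18 are the largest member of their type in every line.

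To set the members against the rest of the transcriptome, values were log2-transformed after adding 1 FPKM and quantile-normalized, and 14165 genes reaching 1 FPKM in at least 1 line were compared at a threshold of 2-fold. Differences below are log2 on this scale, which understates the change of low genes. Between the means of the AOC3 lines and the AOC11 lines, Krt5 (5.19) and Krt6a (4.32) were higher, against 5.1% of all genes, and Krt7 (-5.39) and Krt19 (-2.46) were lower, against 6%. Since the members were chosen on these levels, nothing is read from their count or from the size of their differences beside all genes. The median absolute difference was 0.69 over the 9 members and 0.33 over all genes. Without AOC3 the Krt19 difference was -0.70, within the threshold.

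Between the primary lines, AOC3 exceeded AOC11 in Krt5 (6.42) and Krt6a (3.36), where 6.25% of all genes were higher. AOC11 exceeded AOC3 in Krt7 (-5.41), Krt19 (-4.64) and Krt16 (-1.03), where 5.69% were lower. Krt16 fell short of 2-fold without quantile normalization (-0.98). Between the lymph node lines Krt5 (3.96) and Krt6a (5.28) were higher in AOC3-LN, with 7.58% of all genes higher, and Krt7 (-5.37) was lower, with 8.69% lower. Krt6a thus differed more than Krt5 between the lymph node lines. Krt19 differed there by -0.29. Krt5 and Krt6a passed 2-fold at both sites, as did 2.21% of genes in that direction, and Krt7 did in the other, as did 2.61%.

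Simple separation of the mice, without a threshold, was common in the table. Both AOC3 lines lay above both AOC11 lines in 26.3% of genes and in 4 members, Krt5, Krt6a, Krt17 and Krt18. Both AOC11 lines lay above in 26.7% of genes and in 4 members, Krt14, Krt16, Krt7 and Krt19. Krt17 was separated only after normalization. Krt8 was the tested member whose lines overlapped between mice on this scale.

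**Figure D3:**
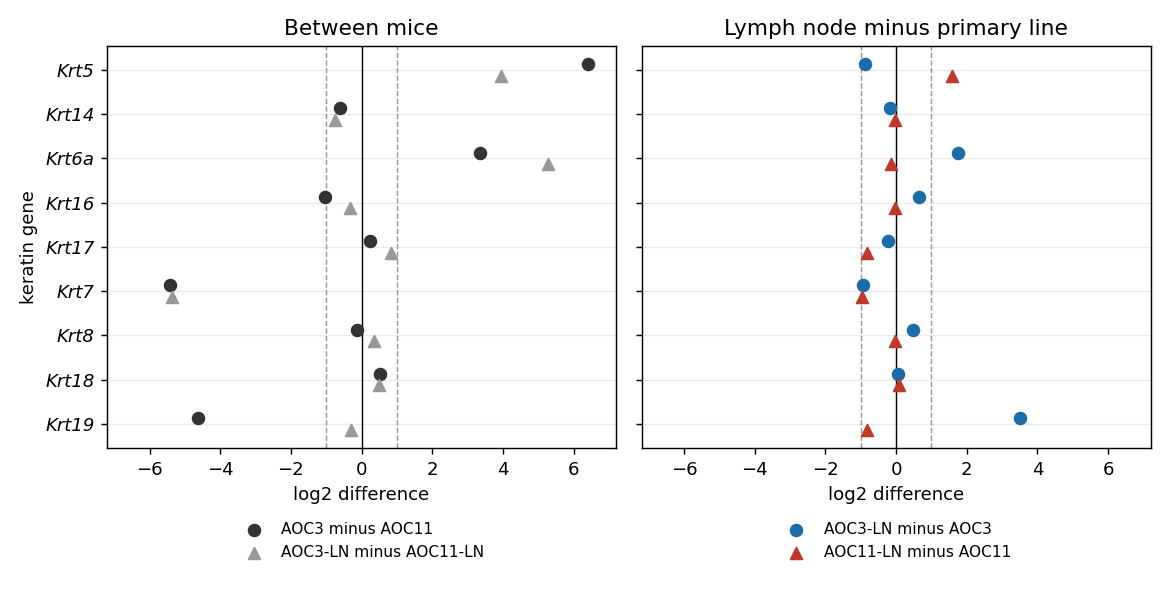
Log2 differences of the 9 tested members, between mice for primary and lymph node lines (left) and between lymph node and primary line within each mouse (right), after adding 1 FPKM and quantile normalization, with dashed lines at 2-fold. Krt5 and Krt6a lie above and Krt7 below the threshold in the primary and in the lymph node comparison between mice, whereas Krt19 passes it between the primary lines and lies at -0.29 between the lymph node lines.

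Within a mouse, fewer members changed by 2-fold between lymph node and primary line. AOC3-LN exceeded AOC3 in Krt19 (3.52) and Krt6a (1.77), with 2.11% of all genes higher, and no member was lower by 2-fold, with 3.42% lower. AOC11-LN exceeded AOC11 in Krt5 (1.57), with 4.97% higher, and again no member passed in the other direction, with 3.14% lower. Krt7 was close to the threshold in both mice, at -0.94 and -0.97. Krt18, at 0.04 and 0.08, and Krt14, at -0.17 and -0.03, differed little in either mouse. The median absolute difference over the members was 0.66 in mouse 3, against 0.22 over all genes, and 0.16 in mouse 11, against 0.32. Nothing is read from these medians either, the members being chosen on their levels.

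Position in the keratin clusters was set beside these differences. Krt5 and Krt6a are neighbours 12.8 kb apart with 0 keratin genes between them, and Krt6b, a near copy of Krt6a on its other side, was 2.94, 10.8, 0.135 and 0.141 FPKM. Krt7 lies 277 kb from Krt5 with 11 keratin genes between. Krt8 and Krt18 lie 23.7 kb apart, also without a keratin gene between, and kept similar levels. Other neighbours differed widely in level. On chromosome 11 Krt16 and Krt17, 7.31 kb apart, were 1.93 and 547 FPKM in AOC3, and Krt15 and Krt19, 4.88 kb apart, were 0.583 and 63.3 FPKM in AOC11-LN. Of 27 keratin genes on chromosome 15, 7 reached 1 FPKM, and of 27 on chromosome 11, 5 did.

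**Figure D4:**
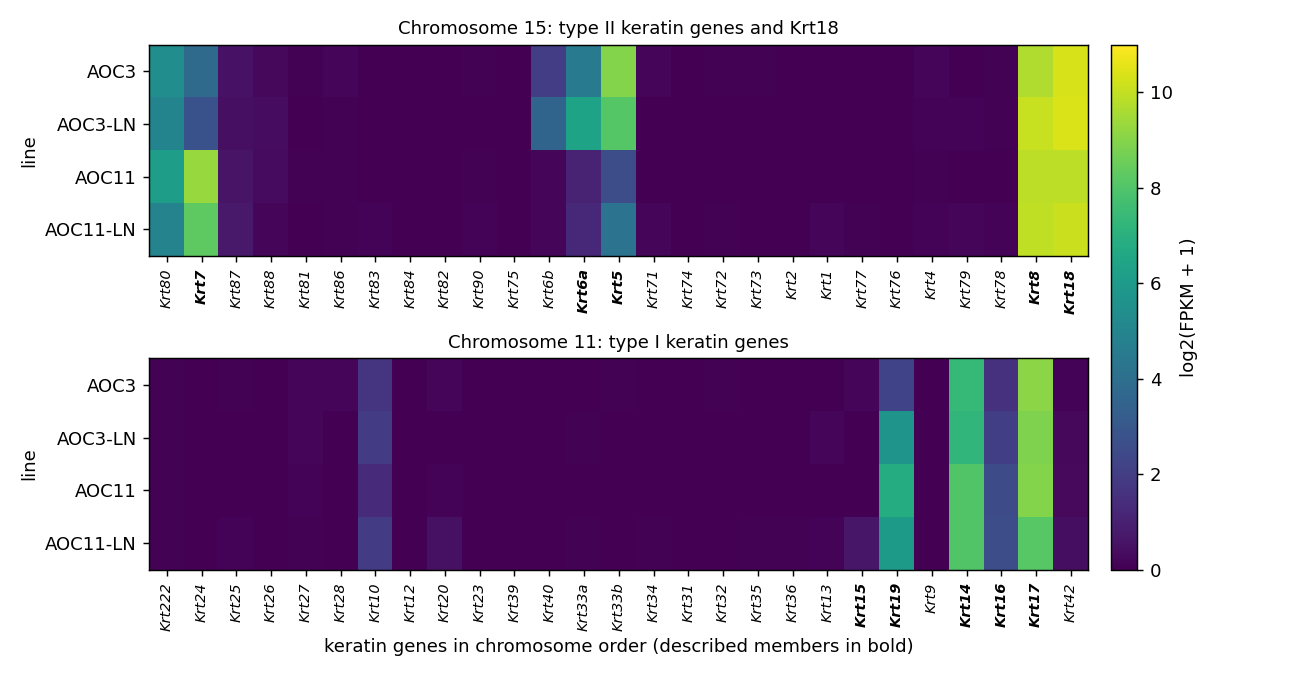
Keratin genes of the chromosome 15 and chromosome 11 clusters in genomic order, with their level in each line as a colour scale of log2(FPKM + 1). Signal is restricted to a few genes of each cluster, and the adjoining Krt6b, Krt6a and Krt5 are all higher in the lines of mouse 3.

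Of the 45 keratin genes outside the set, 4 reached 1 FPKM and 8 were listed at 0 in all lines. Those reaching 5 FPKM were Krt80, a type II keratin of differentiating cells, Krt6b and the processed pseudogene Krt8-ps. Krt80 was 41.0, 30.1, 69.0 and 29.0 FPKM and Krt8-ps 28.1, 39.6, 26.2 and 33.0 FPKM. Shared sequence limits some of these values. Of the 100-base windows of the Krt6a transcript 47.5% also occurred in another gene, 29.5% in Krt6b, and the Krt6a to Krt6b ratio stayed between 7.48 and 9.95. For Krt8 17.1% were shared, nearly all with Krt8-ps, and for Krt16 24.3%, mostly with Gm11597. Krt5 shared 3.81% and Krt14 2.88%, whereas Krt15, Krt17, Krt7, Krt18 and Krt19 shared none.

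Genes of related function were read from 6 gene lists drawn up with earlier results known. Nothing is therefore read from the counts or medians of these lists, which are given as a description. Over all genes 2.21% were higher in mouse 3 at both sites and 2.61% in mouse 11. Among 13 basal layer genes, of which 11 were tested, 4 were higher in mouse 3 at both sites and none was lower at both. Cdh3 was lower in AOC3-LN than in AOC11-LN (-1.21). Of the 4, Ngfr, the low-affinity neurotrophin receptor, was 109, 85.4, 4.63 and 6.91 FPKM. Itga6, an integrin subunit of hemidesmosomes, was 188, 260, 86.3 and 69.0 FPKM. Itgb4, also on the list, was higher in mouse 11 within 2-fold (-0.40), at 39.9, 43.0, 59.1 and 54.7 FPKM. Trp63, the transcription factor of basal keratinocytes, was low throughout, at 1.69, 2.10, 0.0848 and 0.841 FPKM. It reached 1 FPKM only in the lines of mouse 3, and its difference between lymph node lines, 1.0003, lay at the threshold. The list's median difference between mice was 0.70, against 0.01 over all genes.

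Among 13 simple or ductal epithelium genes, of which 11 were tested, none was higher in mouse 11 at both sites. Cd24a was higher in mouse 3 at both, at 124, 119, 46.9 and 44.6 FPKM. Cldn3, a tight junction claudin, was 197, 242, 0.0550 and 186 FPKM, low in AOC11 alone. The list's median was 0.03. Of 20 transcription factors linked to keratin genes, 17 were tested. Fosl1 and, with the limits given above, Trp63 were higher in mouse 3 at both sites. Fosl1, an AP-1 subunit, was 39.0, 84.1, 16.0 and 19.3 FPKM. Tfap2c, an AP-2 factor, was higher in mouse 11 at both, at 0.0661, 0.0587, 8.20 and 4.05 FPKM. Tfap2a, another AP-2 factor on the list, had a higher FPKM than Tfap2c in every line. It differed by 0.16 between mice, within 2-fold. The part of either factor in the level of Krt7 was not tested. The median of this list was 0.13.

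Genes of other filaments and of filament anchorage were the remaining lists. Of 13 other intermediate filament genes 5 were tested, and Vim and Nes were higher in mouse 3 at both sites. Vim, the filament of mesenchymal cells, was 122, 118, 35.4 and 27.2 FPKM, and Nes, the filament of progenitor cells, was 49.9, 63.9, 3.11 and 3.53 FPKM. The list's median was 0.58. All 15 genes that bind keratins or build the desmosomal plaque were tested and none passed 2-fold at both sites. Pkp3, a plakophilin, was the exception between lymph node lines (-1.08), and the median was -0.05. Of 12 differentiation keratins only Krt10 and Krt80 were tested, neither passed between mice, their median was -0.03, and Krt80 fell by 1.22 from AOC11 to AOC11-LN.

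**Figure D5:**
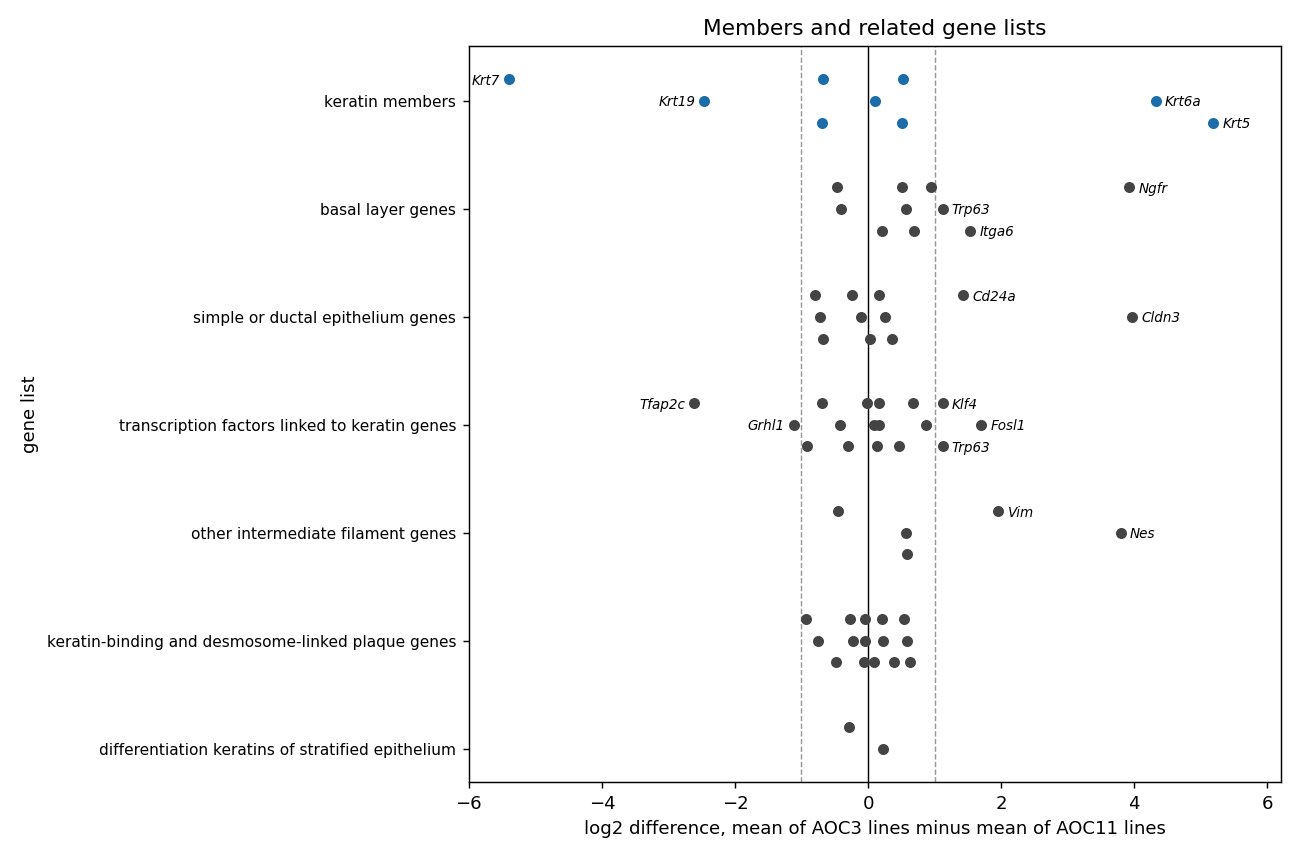
Log2 difference between the mean of the AOC3 lines and the mean of the AOC11 lines for each tested member and the tested genes of the 6 related lists, 1 point per gene and 1 basal layer gene not drawn, with dashed lines at 2-fold. Krt5 lies at 5.19 and Krt7 at -5.39, and the 15 genes of the plaque list all lie within 2-fold.

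Among protein-coding genes reaching 1 FPKM in at least 1 line, those whose profile over the 4 lines was closest to 3 members were named. Closeness was the Euclidean distance between log2 profiles centred on their mean. Closest to Krt5 were Gm17571 (1.13), Gm11032 (1.17), Igfbp4 (1.48) and Ngfr (1.54), the first pair listed at 0 in both lines of mouse 11. Closest to Krt7 were Arhgdib (0.66), C1s1 (0.69), Cryab (1.33), Clec2g (1.75) and Nupr1 (2.04). Closest to Krt19 were Ppp2r2c (1.25), Bspry (1.38), Eomes (1.73), Car2 (1.97) and Cd209c (2.04). With 4 lines such likeness is a description of these libraries.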

How the data were processed

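RNA of 4 cell lines was sequenced, 1 library per line (TruSeq Stranded mRNA, paired reads, Illumina NovaSeq). The authors trimmed reads with Trim Galore, mapped them to mm10 with TopHat2 and deposited FPKM values from Cufflinks on GENCODE M21, with tool versions not given in the sources used here. The study's methods name log2 transformation and quantile normalization, but the deposited FPKM columns have different sorted values and were used as untransformed. Here log2(FPKM + 1) was computed from the deposited FPKM and quantile-normalized, and 14165 genes with at least 1 FPKM in a line were compared at 2-fold. With 1 library per line no test was made, and the threshold does not stand in for one. Multi-transcript genes make per-length levels depend on the transcripts chosen by Cufflinks.

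Fragments per line were estimated from 9528 genes with a single transcript, where 71.6% to 74.9% of low values lay within 0.1 of a whole fragment (20% by chance), after a check on simulated data. Poisson intervals (95%) use these. The members and the gene lists were chosen with earlier results of these data known. All members were named, with list genes past 2-fold at both sites (up to 4 with the largest difference) and other keratins reaching 5 FPKM. The 5 nearest profiles of protein-coding genes were picked for Krt5, Krt7 and Krt19. Of the genes these rules pick, 2 are not reported here. Other genes named were chosen after their values were seen. Python 3.11.15, numpy 2.4.6, pandas 2.3.3 and scipy 1.17.1 were used. Alternatives were a pseudocount of 0.1, no quantile normalization, median scaling, a 1.5-fold threshold, protein-coding genes only, other denominators and leaving out a line.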

Additional observations from a re-analysis of the deposited data

Results flagged for a closer look

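The log2 differences between lymph node and primary line, lymph node minus primary, had opposite signs in the 2 mice for 5 members on the quantile-normalized scale, and with 1 library per line the difference between mice was not tested. Krt19 was 3.52 in mouse 3 and -0.83 in mouse 11. Krt5 was -0.89 in mouse 3 and 1.57 in mouse 11. For the other 3 members the sign in mouse 11 came only with quantile normalization, and their FPKM was higher in the lymph node line of both mice. Krt6a was 1.77 in mouse 3 and -0.16 in mouse 11, the latter 0.15 without quantile normalization and 0.14 with median scaling. Krt16 was 0.66 and -0.038, the latter 0.062 and 0.051 under these alternatives. Krt8 was 0.47 and -0.031, the latter 0.055 and 0.041.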

How the results depend on the processing

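Of 171 member differences recomputed under an alternative, 163 kept their side of 2-fold and 8 crossed it. None past 2-fold changed sign, but 9 small differences, of at most 0.16 in size, did. Krt8 between mice (0.11) was -0.045 without quantile normalization and -0.12 without AOC3-LN, and in AOC11-LN against AOC11 Krt14 was 0.0081 without quantile normalization and Krt6a, Krt16 and Krt8 turned positive without it and with median scaling. Krt16 between primary lines was -0.98 without quantile normalization and -0.97 with median scaling. Krt16 between mice was -1.01 without AOC3-LN, and Krt19 was -0.70 without AOC3. Krt7 in AOC3-LN against AOC3 was -1.03 with a pseudocount of 0.1 and -1.02 without quantile normalization, and in AOC11-LN against AOC11 it was -1.05 without quantile normalization and -1.06 with median scaling. Leaving out a line gave 3 to 5 members past 2-fold between mice, against 4. With a 1.5-fold threshold 5 members passed between lymph node lines (3 at 2-fold), 5 in AOC3-LN against AOC3 (2) and 4 in AOC11-LN against AOC11 (1, or 2 without quantile normalization and 2 with median scaling). Over all genes a pseudocount of 0.1 gave 2627 past 2-fold between mice (1573) and 2636 between primary lines (1692). It gave 1443 in AOC3-LN against AOC3 (783) and 2074 in AOC11-LN against AOC11 (1149). Protein-coding genes alone, 11380 of the 14165, gave 473 and 689 for this last pair. In these 2 comparisons the share past 2-fold was lower among protein-coding genes than over all genes. Without quantile normalization 34.0% of genes past 2-fold between lymph node lines were higher in AOC3-LN, against 46.6%.

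With all keratin genes as denominator the basal, activated and simple shares were 19.4%, 16.7% and 62.5% in AOC3 and 7.51%, 14.5% and 75.9% in AOC11, the activated and simple shares were 15.9% and 70.6% in AOC3-LN, and the simple share was 80.5% in AOC11-LN. With Krt6b added the activated share in AOC3-LN was 16.4%. The type II to type I ratio over all keratin genes was 0.688, 0.742, 0.905 and 0.777 in AOC3, AOC3-LN, AOC11 and AOC11-LN. A fit of lymph node against primary line with mouse as a block was not run, since the members were chosen on these values. Depth limits Krt15, Krt16 and, in the mouse 11 lines, Krt6a. It may also limit Krt7 in AOC3-LN, at 32.6 fragments by its shortest transcript and 659 by its longest. The same holds for Krt19 in AOC3, at 46.7 and 173 fragments.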
